A study of Homo sapiens with 8 samples.

Results

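The vault, Y, 7SL and 7SK RNAs are short non-coding RNAs made by RNA polymerase III. Of the 26830 genes in the deposited table, 10 were taken by name: VTRNA1-1, VTRNA1-2 and VTRNA1-3; RNY1, RNY3, RNY4 and RNY5; RN7SL1 and RN7SL2; and RN7SK. The rule is a list of names and uses no measured value, although it was drawn up with earlier results of these data known. All 10 were above 0 in every input library.

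The 8 libraries came from 4 cultures labelled as HEK293T, a human embryonic kidney line, all grown from a single clone that carries the Cas9 nuclease. A lentiviral guide RNA against METTL16 was carried by 3 cultures, a different one in each (sgMETTL16-1, sgMETTL16-2 and sgMETTL16-3), and the control guide (sgNS) by 1. METTL16 is a methyltransferase of the U6 small nuclear RNA and of the MAT2A mRNA. All cultures, the control included, were kept in blasticidin (10 µg/ml) and puromycin (2 µg/ml) for 1 week or more and received cycloheximide (100 µg/ml for 5 min), which holds ribosomes in place. From every culture, the input RNA and the fragments of 17 to 34 nt that ribosomes protect (footprints) were sequenced as separate libraries. Levels are in TPM, which is the share of a library's transcripts that a gene holds, corrected for transcript length. Values of single cultures are given in the order sgNS, sgMETTL16-1, sgMETTL16-2, sgMETTL16-3. With 1 control culture, a feature of that culture or library and an effect of the guides cannot be told apart.

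Vault RNAs are small components of the vault, a large barrel-shaped ribonucleoprotein particle whose main protein is MVP. Y RNAs are hairpin RNAs bound by the Ro60 and La proteins, and they are known to be cut into shorter fragments. The 7SL RNA is the scaffold of the signal recognition particle, which binds ribosomes that are making secreted or membrane proteins and brings them to the endoplasmic reticulum. The 7SK RNA works in the nucleus, where with HEXIM and LARP7 proteins it holds the elongation kinase P-TEFb inactive.

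In RefSeq's annotation of GRCh38.p14 every one of these genes is a single non-coding exon. The vault genes lie side by side on chromosome 5: VTRNA1-1 from 140711276 to 140711373 (98 bases), VTRNA1-2 from 140718926 to 140719013 (88 bases) and VTRNA1-3 from 140726159 to 140726246 (88 bases). The Y genes form a cluster on chromosome 7: RNY5 from 148941488 to 148941571 (84 bases), RNY4 from 148963315 to 148963410 (96 bases), RNY3 from 148983755 to 148983856 (102 bases) and RNY1 from 148987136 to 148987248 (113 bases). Both 7SL genes are on chromosome 14, RN7SL1 from 49586580 to 49586878 and RN7SL2 from 49862551 to 49862849 (299 bases each), and RN7SK is on chromosome 6 from 52995620 to 52995951 (332 bases). The same annotation lists 684 pseudogenes named for RN7SL, 293 for RN7SK and 75 for Y RNAs. The deposited table lists none of these, so whether reads from such copies were counted on the genes described here cannot be told.

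The number of reads behind a TPM value was estimated from the values themselves. Among small RNAs of 1 library, TPM multiplied by the length less a constant came in whole multiples of 1 step, which was taken as 1 read. Of values between 0.5 and 6.5 such reads, 84.8% to 92.0% per library lay within 0.05 of a whole number. By this estimate the 10 RNAs together held 95, 180, 104 and 181 reads in the 4 footprint libraries. The 7SL RNAs alone held from 4158960 to 6218709 estimated reads in an input. Intervals given with reads are exact 95% Poisson intervals and cover counting error only.

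The measured markers did not bear out the labelled cell type. Of the 11 HEK293 markers in the table, 5 were under 1 TPM in all inputs, with NEFL, NEFM and VIM listed at 0, while the hepatocyte list, 12 of 12, reached 10 TPM in every input. The hepatocyte markers summed to 5903, 9761, 10135 and 6478 TPM in the inputs and the HEK293 markers to 689, 1182, 1332 and 1237 TPM. KRT8 and KRT18, at 354 and 309 TPM in the sgNS input, were the only 2 HEK293 markers to reach 10 TPM in every input. Of the hepatocyte markers, ALB was at 354, 1099, 1668 and 477 TPM and HNF4A at 77.7, 100, 102 and 93.1 TPM. VIM was present in the footprints of all 4 cultures, at 188, 85.2, 78.7 and 43.3 TPM, so its 0 in the inputs does not show that the gene was silent, and NEFL and NEFM were at 0 in the footprints too. Both input sums were lowest in sgNS, and their part in the results was not tested. In bulk RNA, fewer cells of a type and less RNA per cell cannot be told apart. METTL16 RNA was at 5.31, 4.72, 5.25 and 4.16 TPM in the inputs (log2 change -0.68, SE 0.36, limma adjusted p = 0.482), a change that did not pass the test.

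In the inputs these 10 RNAs made up most of the TPM, at 67.6%, 57.1%, 56.7% and 62.2%. The 7SL RNAs held 49.3%, 45.4%, 45.5% and 50.6%, so the sgNS share lay inside the range of the sgMETTL16 inputs. The 7SK RNA held 17.7% in sgNS and 10.5%, 9.64% and 9.91% in the sgMETTL16 inputs, where its share was lower in every one. Y RNAs held 0.572%, 1.17%, 1.53% and 1.66%, and vault RNAs 0.00414%, 0.0503%, 0.0394% and 0.0465%. Both families had their lowest share in sgNS.

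**Figure D1:**
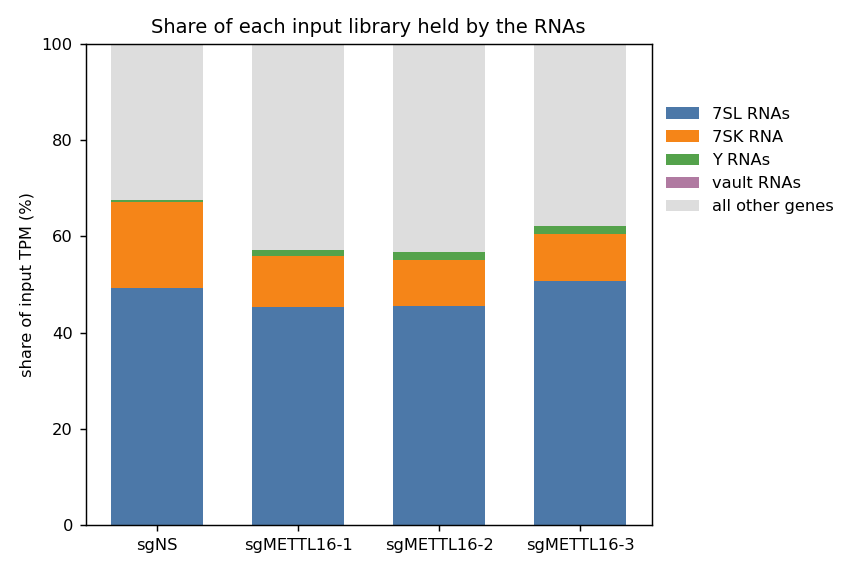
Share of input TPM (percent, y axis) held by the 7SL, 7SK, Y and vault RNAs and by all other genes in each of the 4 input libraries (x axis). The 7SL share lies between 45.4% and 50.6% in all 4, the 7SK share is 17.7% in sgNS and at most 10.5% in the others, and the vault share is too small to be visible.

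By level, RN7SL1, RN7SL2 and RN7SK were the 3 most abundant genes of every input. In sgNS, RNY1 ranked 9, RNY3 14, RNY4 194, VTRNA1-1 1343, RNY5 2055, VTRNA1-2 3243 and VTRNA1-3 6470. In the sgMETTL16 inputs RNY1 kept to ranks 9 and 10, while RNY4 ranked between 22 and 26, VTRNA1-1 between 82 and 146, RNY5 between 105 and 202, VTRNA1-2 between 305 and 457 and VTRNA1-3 between 2185 and 3002. Among the sgMETTL16 means, RN7SL2 (239341 TPM ± 18022, SD, n = 3) and RN7SL1 (232474 TPM ± 12080) lay within 1 SD of each other. The other neighbours in the order RN7SK, RNY1, RNY3, RNY4, VTRNA1-1, RNY5, VTRNA1-2, VTRNA1-3 lay further apart than either SD, although single cultures of RNY3 and RNY4, and of VTRNA1-1 and RNY5, overlapped.

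**Figure D2:**
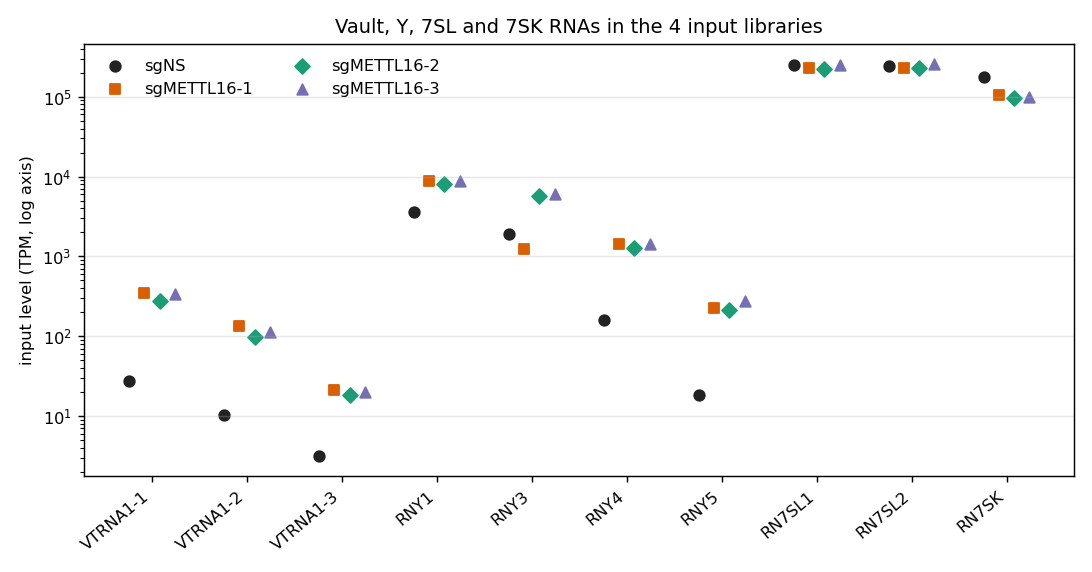
Input level in TPM (log axis) of the 10 RNAs, with 1 point for each of the 4 cultures. The sgNS point lies below all 3 sgMETTL16 points for the vault RNAs, RNY1, RNY4 and RNY5, among them for RNY3 and RN7SL2, and above them for RN7SL1 and RN7SK.

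The input comparison asked whether the abundance of these RNAs differed between cells with guides against METTL16 and the control. All 3 vault RNAs and the Y RNAs RNY4 and RNY5 rose, by 3.49-fold to 8.72-fold relative to the median gene, and RNY1, RNY3, the 7SL RNAs and 7SK did not pass the test. That is 5 of 10 called higher and 0 lower by limma on log2(TPM + 1), centred on the median gene, at an adjusted p of 0.05. Of all 10967 genes tested, 1.58% were called higher, 1.25% lower and 2.83% either way. The median change of all tested genes was -0.06 after centring and 0.46 on the deposited TPM, so TPM ratios are larger than the centred folds. The fit takes the lone sgNS library to vary like the sgMETTL16 libraries. Its p-values measure a spread between cultures with different guides that is pooled over genes. Here limma gave every gene the variance typical of genes at its level, so a gene's own spread did not enter. RNY3, whose cultures disagreed, thus had an SE of 0.50, below the 0.53 of RNY1. Without sgMETTL16-1 the genes called numbered 110 and without sgMETTL16-3 they numbered 664, against 310 with all.

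VTRNA1-1, the most abundant vault RNA here, was at 27.8, 346, 278 and 334 TPM in the inputs. All 3 sgMETTL16 inputs lay far above sgNS, which held 67 reads (51.9 to 85.1) against 506 to 727. Its log2 change was 2.94 (SE 0.43, limma adjusted p = 3.37e-09). VTRNA1-2 was at 10.5, 136, 97.3 and 112 TPM, again with sgNS apart and below (log2 change 2.80, SE 0.40, adjusted p = 3.37e-09). VTRNA1-3, the least abundant, was at 3.14, 21.2, 18.6 and 19.9 TPM (log2 change 1.80, SE 0.38, adjusted p = 0.000186). Its sgNS value rested on 6 reads (2.20 to 13.1), and the interval lies below those of the 27 to 34 reads in sgMETTL16. Without sgMETTL16-1 its adjusted p was 0.0918 at a log2 change of 1.81. The related VTRNA2-1 was listed at 0 in all libraries but the sgMETTL16-2 input.

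The ratio of VTRNA1-1 to VTRNA1-2 within an input does not depend on scaling between libraries. It was 2.65 in sgNS and 2.54, 2.86 and 2.99 in sgMETTL16, so sgNS lay inside the sgMETTL16 range (exact permutation test, two-sided p = 0.75, adjusted p = 0.964 over 9 ratios). The ratio of VTRNA1-1 to VTRNA1-3 was 8.84 in sgNS and 16.3, 14.9 and 16.8 in sgMETTL16. The sgNS ratio was the lowest, at p = 0.25, the smallest that 1 against 3 can give (exact two-sided permutation test, adjusted p = 0.562). It rests on the 6 reads of VTRNA1-3, whose interval of 2.20 to 13.1 is wide enough to reach the sgMETTL16 ratios, so no difference beyond counting error was detectable.

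Among the Y RNAs, the shorter RNY4 and RNY5 rose and the longer, more abundant RNY1 and RNY3 were not called. RNY4 was at 161, 1430, 1258 and 1438 TPM in the inputs, from 375 reads in sgNS and 2194 to 2999 in sgMETTL16. Its log2 change was 2.55 (SE 0.46, limma adjusted p = 7.40e-06). RNY5 was at 18.1, 228, 216 and 279 TPM, from 31 reads in sgNS (21.1 to 44.0) and 281 to 430 in sgMETTL16. The sgMETTL16 cultures did not overlap sgNS for either RNA, and the change of RNY5 was the largest of the 10 (log2 change 3.12, SE 0.42, adjusted p = 7.67e-11).

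RNY1 was at 3638, 8819, 8121 and 8725 TPM in the inputs. All 3 sgMETTL16 values exceeded sgNS, but the centred change of 0.70 (SE 0.53) had a limma adjusted p of 0.737. RNY3 was at 1901, 1231, 5720 and 6124 TPM, and on the centred scale it was the 1 RNA of the set whose sgMETTL16 cultures disagreed in direction. Its centred change was -1.26 in sgMETTL16-1, 0.81 in sgMETTL16-2 and 1.52 in sgMETTL16-3 (0.35 in the fit, SE 0.50, adjusted p = 0.920). The sgMETTL16-1 value rested on an estimated 2370 reads, so counting error was small beside this spread.

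The spread of RNY3 carried into the ratios within the Y family. RNY1 to RNY3 was 1.91 in sgNS and 7.16, 1.42 and 1.42 in sgMETTL16. Without sgMETTL16-1 the sgMETTL16 ratios were thus below sgNS, and with it their mean was above. RNY4 to RNY3 was 0.0848 in sgNS and 1.16, 0.220 and 0.235 in sgMETTL16, and RNY5 to RNY3 was 0.00954 and 0.185, 0.0378 and 0.0455. All sgMETTL16 inputs had more RNY4 and RNY5 for each RNY3 than sgNS (exact two-sided permutation p = 0.5 and adjusted p = 0.75 for each). The vault RNAs together stood to the Y RNAs together as 0.00723 in sgNS and 0.0430, 0.0257 and 0.0281 in sgMETTL16 (exact two-sided permutation p = 0.25, adjusted p = 0.562).

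**Figure D3:**
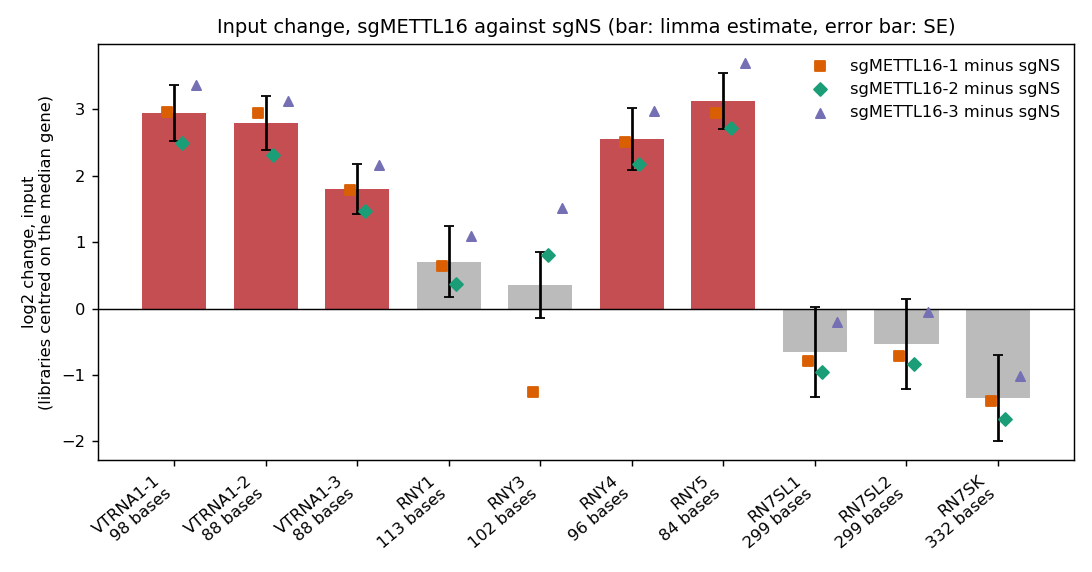
Input change of the 10 RNAs, sgMETTL16 against sgNS, as log2 relative to the median gene: bars are limma estimates (red where called, grey where not), error bars their standard errors and points single sgMETTL16 cultures. The vault RNAs, RNY4 and RNY5 lie between 1.80 and 3.12, while RNY3 has points on both sides of 0.

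RN7SL1 was at 253268, 227274, 223866 and 246283 TPM in the inputs and RN7SL2 at 239781, 226576, 231491 and 259956 TPM. The copies are nearly identical, so how reads were divided between them is uncertain. Their ratio was 1.06 in sgNS and 1.00, 0.967 and 0.947 in sgMETTL16. Summed to 1 RNA, an alternative added after the data were seen, 7SL had a log2 change of -0.59 (SE 0.72, limma adjusted p = 0.895), and singly RN7SL1 had -0.65 (SE 0.68, adjusted p = 0.865) and RN7SL2 -0.53 (SE 0.68, adjusted p = 0.902). None of these passed the test; with no filter on low values RN7SL1 alone did, at -0.51 (adjusted p = 0.0260).

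RN7SK was at 177487, 105425, 96377 and 99131 TPM in the inputs. All 3 sgMETTL16 values lay below sgNS, at a mean of 100311 TPM ± 4638 (SD, n = 3). Its centred log2 change of -1.35 (SE 0.65) had an unadjusted p of 0.0364 and a limma adjusted p of 0.387. The call turned with the settings: the adjusted p was 0.0181 with genes at a mean of 10 TPM or more, 0.00432 with no intensity trend, and 3.94e-10 with no filter on low values. The ratio of 7SL to 7SK within an input was 2.78 in sgNS and 4.30, 4.72 and 5.11 in sgMETTL16 (4.71 ± 0.40, SD, n = 3). All 3 sgMETTL16 ratios were above sgNS (exact two-sided permutation p = 0.25, adjusted p = 0.562).

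Across the 10 RNAs the input change fell with RNA length (Pearson r = -0.87, Spearman rho = -0.89). The points share the same 4 libraries, and length and family go together here, so this is a description. Among 266 small nucleolar and nuclear RNAs the order ran the other way (r = 0.38, rho = 0.43 across genes). The 49 of 50 to 79 bases had a median change of -0.83, with 2 called higher and 15 lower. The 58 of 80 to 99 bases, the lengths of RNY4, RNY5 and the vault RNAs, had a median of -0.10, with 5 higher and 4 lower. The 17 of 100 to 119 bases had the highest median, 1.55, with 10 higher and 0 lower. It was 1.06 for the 95 of 120 to 139 bases, with 38 higher and 2 lower, and 0.87 for the 47 of 140 to 350 bases, with 15 higher and 3 lower. In all, 70 of the 266 were called higher and 24 lower, so calls were common among small RNAs. The vault RNAs, RNY4 and RNY5 lay above the median of small RNAs of like length. RNY1 (0.70) and RNY3 (0.35) lay below that of the 100 to 119 bases, and RN7SL1, RN7SL2 and RN7SK below that of the 140 to 350 bases. These comparisons are given without a test.

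The proteins that bind or make these RNAs were described from lists chosen by function. In the inputs no gene of the vault particle (3 tested), the Ro and La group (7), the signal recognition particle (8), the 7SK particle (7) or the group that modifies or degrades such RNAs (7) was called. None of 28 tested genes of RNA polymerase III and its factors was called either, by limma at an adjusted p of 0.05. Unadjusted p-values under 0.05 were held by 1226 of all 10967 genes. The median log2 changes were 0.32, -0.11, 0.12, -0.21, 0.08 and 0.00 for these 6 lists in that order, where all tested genes had -0.06.

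MVP, the shell protein of the vault, was at 15.6, 32.7, 38.2 and 38.4 TPM in the inputs, with a centred log2 change of 0.64 (SE 0.39, limma adjusted p = 0.592). The other vault proteins PARP4 and TEP1 had log2 changes of 0.32 and -0.14. Of the Y RNA binders, TROVE2, the gene of Ro60, had 0.18, and NCL, PTBP1 and HNRNPK had -0.44, -0.42 and -0.22. In the signal recognition particle and its receptor, SRPRA had -0.79, SRP72 0.53, SRP14 -0.45 and SRP54 0.38. The kinase CDK9 of P-TEFb had -0.56, its inhibitors HEXIM1 and HEXIM2 -0.33 and -0.25, and the 7SK stabiliser LARP7 -0.21. Among the polymerase III genes, GTF3C2, a subunit of the factor TFIIIC, had -1.03 (adjusted p = 0.163), CRCP, a polymerase subunit, 0.69, GTF3C3 0.49 and POU2F1 -0.48. TOE1 and PARN, deadenylases that trim small RNA ends, had -0.39 and 0.22, PAPD5 0.29 and SRSF2 -0.35. None of the values in this paragraph passed the test.

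Of 11 other RNA polymerase III transcripts looked for, 10 were in the table and 4 were abundant enough to test. BCYRN1, the brain cytoplasmic RNA BC200, was at 80.0, 37.3, 41.4 and 39.9 TPM in the inputs and fell (log2 change -1.53, SE 0.40, limma adjusted p = 0.00688). It was thus called in the direction opposite to the vault RNAs, RNY4 and RNY5. RNU6ATAC, the minor spliceosome's U6 RNA, had 1.19 (adjusted p = 0.212), RMRP, the RNA of RNase MRP, -1.06 (adjusted p = 0.492) and RPPH1, the RNA of RNase P, -0.12 (adjusted p = 0.987). The 5 copies of the gene for U6 RNA itself, METTL16's substrate, were listed at 0 in all 8 libraries. How reads from such copies were counted cannot be told, so these zeros do not show that U6 RNA was absent.

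The footprint libraries gave a different picture of these RNAs, since the 7SL and 7SK RNAs that lead the inputs held far smaller shares there. The 10 RNAs held 3.54%, 4.53%, 2.70% and 7.76% of footprint TPM. Y RNAs made up 1.88%, 3.22%, 2.47% and 7.53%, 7SL RNAs 1.54%, 1.30%, 0.194% and 0.203%, and 7SK 0.0373%, 0.00997%, 0.0345% and 0.0285%. RNY4 ranked 9, 9, 9 and 5 among all genes, and the 7SL copies still ranked 12 in sgNS and 15 in sgMETTL16-1. Vault RNAs were listed at 0 in the footprints but for VTRNA1-1 in sgNS.

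RNY4 was at 10960, 12260, 15796 and 43582 TPM in the footprints, from an estimated 12, 26, 49 and 93 reads. RNY5 was at 5666, 16873, 6739 and 18153 TPM, from 5, 29, 17 and 31 reads. RNY1 held 3, 6, 5 and 22 reads and RNY3 held 0, 2, 3 and 13. All 4 Y RNAs were highest in sgMETTL16-3, but for RNY5 the intervals of sgMETTL16-3 (21.1 to 44.0) and sgMETTL16-1 (19.4 to 41.6) overlap widely. The 7SL RNAs together held 72, 116, 25 and 19 reads, and 7SK held 2, 1, 5 and 3. The division of 7SL reads between copies differed from culture to culture: it was even in sgNS (36 and 36) and sgMETTL16-1 (58 and 58), all to RN7SL2 in sgMETTL16-2 and all to RN7SL1 in sgMETTL16-3.

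**Figure D4:**
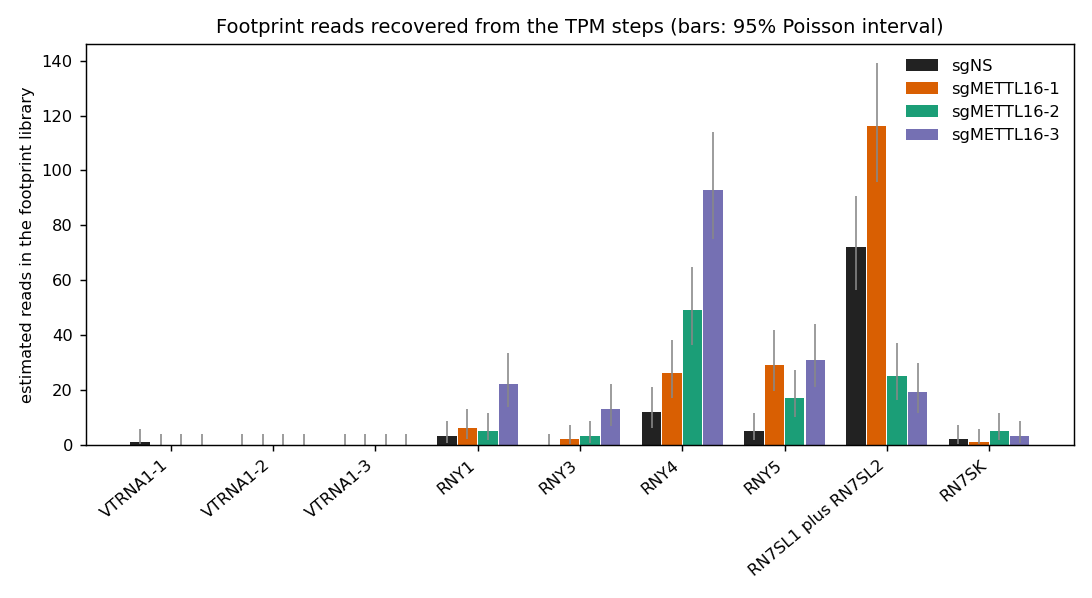
Estimated reads of the Y, 7SL, 7SK and vault RNAs in the 4 footprint libraries (bars, y axis), with thin lines for exact 95% Poisson intervals. RNY4 ranges from 12 to 93 reads, the 7SL sum from 19 to 116, and 7SK from 1 to 5.

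In the footprint comparison of sgMETTL16 with sgNS, 0 of 8 tested RNAs were called higher and 1 lower, by limma on TPM scaled by the median ratio. Of 9297 genes tested, 0.699% were called higher, 5.84% lower and 6.54% either way. Of the 608 calls, 607 were genes at 0 on 1 side, and the called member was of that kind. METTL16 was among these 607, called lower at 19.8 TPM in the sgNS footprints and 0 in those of sgMETTL16. Its reads were not estimated, so whether that call exceeds counting error was not tested. VTRNA1-1 was listed at 885 TPM in sgNS and at 0 in sgMETTL16, which was 1 read (0.0253 to 5.57) against 0 (limma adjusted p = 0.0329), and 3 reads would be 938 to 2656 TPM. A difference was therefore not detectable at this depth. VTRNA1-2 and VTRNA1-3 were at 0 throughout and were not tested.

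The Y RNAs had positive values in the footprint comparison without passing the test. The log2 change was 1.44 for RNY4 (SE 1.39, limma adjusted p = 0.695), 1.72 for RNY5 (SE 1.10, adjusted p = 0.695) and 0.95 for RNY1 (SE 1.75, adjusted p = 0.716), where the median tested gene had 0.89. These 3 values turned negative, to -1.23, -0.96 and -1.73, when libraries were centred on the median log value. RNY3, at 0 in sgNS, had an adjusted p of 0.157. RN7SK had a log2 change of -0.25 (SE 1.19, adjusted p = 0.887). RN7SL1 (-4.42, SE 6.78) and RN7SL2 (-4.70, SE 6.58) had an adjusted p of 0.695 each, and each copy was at 0 in a different sgMETTL16 culture.

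The footprint versus input comparison asked where these RNAs stand in the footprint fraction, over all 4 cultures. RNY4 and RNY5 were higher in footprints than in inputs, 7SK was lower, and so was 7SL when its copies were summed. In all, 2 of 10 RNAs were called higher and 3 lower by limma on TPM as deposited, where 5.05% of 11233 genes were called higher, 24.9% lower and 29.9% either way. The median gene had a log2 difference of -0.93.

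RNY5 was 6.35 higher on the log2 scale in footprints than in inputs (SE 0.54, limma adjusted p = 0.000147), and higher in 4 of 4 cultures, by 8.21, 6.20, 4.95 and 6.02. RNY4 was 4.44 higher (SE 0.53, adjusted p = 0.000676), also in 4 of 4 cultures, by 6.08, 3.10, 3.65 and 4.92. Had the footprint TPM equalled the input TPM, RNY4 would have had 0.176, 3.03, 3.90 and 3.07 reads, against the 12, 26, 49 and 93 estimated. RNY5 would have had 0.0160, 0.392, 0.546 and 0.476 reads, against 5, 29, 17 and 31. In each culture the expected number lay below the counting interval, whose lowest bounds were 6.20 for RNY4 and 1.62 for RNY5, both in sgNS.

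RNY1 and RNY3, the more abundant Y RNAs of the inputs, did not share this. RNY1 was lower in footprints in 4 of 4 cultures, by log2 differences of -0.76, -1.98, -2.67 and -0.12 (-1.38 in the fit, SE 0.55, limma adjusted p = 0.109). It was called lower with median ratio scaling (adjusted p = 0.0343), with TPM rescaled without small structural RNAs (adjusted p = 0.0329) and without sgMETTL16-3 (adjusted p = 0.0364). At its input TPM, RNY1 would have had 5.07, 23.7, 31.8 and 23.9 reads, against 3, 6, 5 and 22. The numbers for sgNS and sgMETTL16-3 lie inside the counting intervals of 0.619 to 8.77 and 13.8 to 33.3, so those 2 cultures did not differ beyond counting error. RNY3 had a log2 difference of -3.56 (SE 1.83, adjusted p = 0.198), which rests on sgNS at 0, and of -1.12 without sgNS (adjusted p = 0.499). It would have had 2.28, 2.85, 19.4 and 14.4 reads, against 0, 2, 3 and 13, and only the sgMETTL16-2 number lies outside its counting interval, 0.619 to 8.77. In the inputs RNY1 exceeded RNY4 in all 4 cultures, and in the footprints RNY4 exceeded RNY1 in all 4. These RNAs leave few places for a read to start: the 84 bases of RNY5 hold 34 starts of a 51-base read and 51 of a 34-base read, and the 113 bases of RNY1 hold 63 and 80. How far the length correction in TPM moves RNY4 and RNY5 was not tested.

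RN7SK was lower in footprints by a log2 difference of -8.87 (SE 0.38, limma adjusted p = 8.76e-05), in 4 of 4 cultures. It held 1 to 5 reads where its input TPM would have given 934, 1053, 1394 and 1039. The 7SL sum was lower by -6.49 (SE 0.70, adjusted p = 0.000379), with 72, 116, 25 and 19 reads where 2306, 4034, 5863 and 4717 would have matched the input. Taken singly, RN7SL1 (adjusted p = 0.0584) and RN7SL2 (adjusted p = 0.0579) were not called. In the footprints 7SL stood to 7SK as 41.2, 130, 5.62 and 7.13, above the input ratio of the same culture in all 4, and sgNS lay inside the sgMETTL16 range (exact two-sided permutation p = 1). In sgMETTL16-2 and sgMETTL16-3, where the input ratios were 4.72 and 5.11, the footprint ratios rest on 5 and 3 reads of 7SK. The intervals of these reads, 1.62 to 11.7 and 0.619 to 8.77, are wide enough to reach the input ratios.

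VTRNA1-2 (-6.01, limma adjusted p = 0.000368) and VTRNA1-3 (-3.80, adjusted p = 0.000706) were also called lower in footprints. Their input levels would have given 0.264 reads at most in any footprint library, and 3 reads there are worth 1105 to 3147 TPM. A level below that of the inputs was thus not detectable at this depth for these vault RNAs. VTRNA1-1 was not called (-5.00, SE 2.26, adjusted p = 0.148). Without sgNS, whose footprints hold its 1 read, it had -8.32 and an adjusted p of 0.000126, and its input level would have given at most 0.890 reads.

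**Figure D5:**
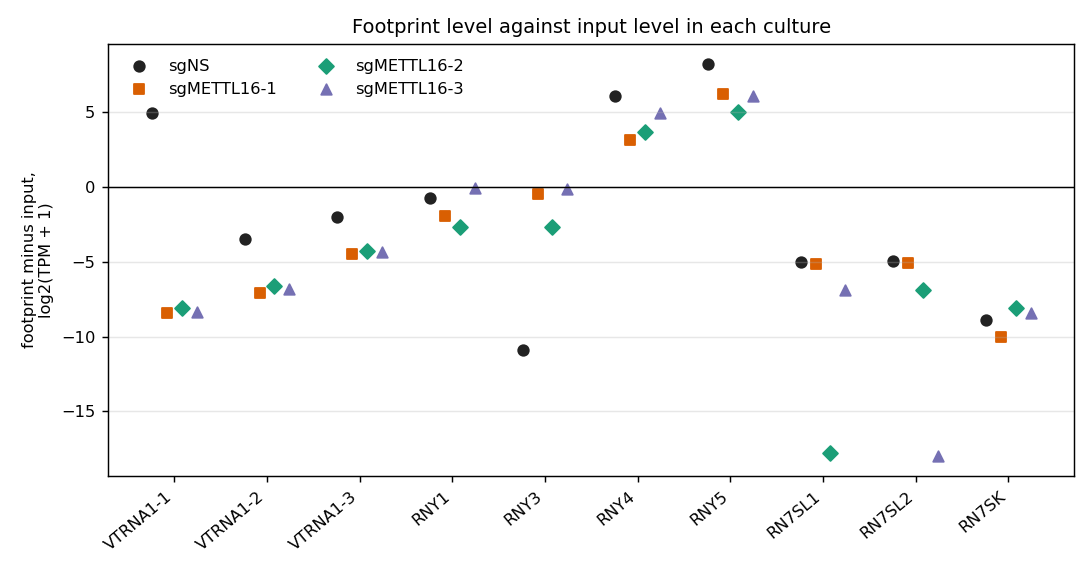
Difference of footprint and input, log2(TPM + 1), for the 10 RNAs in each of the 4 cultures. RNY4 and RNY5 lie above 0 in all 4 cultures and 7SK near -8.87, and the lowest points of RN7SL1 (sgMETTL16-2), RN7SL2 (sgMETTL16-3) and RNY3 (sgNS) are footprints listed at 0, as are those of the vault RNAs other than VTRNA1-1 in sgNS.

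The genes of the proteins tied to these RNAs were counted in the same comparison, against the 5.05% of all genes called higher and the 24.9% called lower. Of the Ro and La group 2 of 7 were higher, TROVE2 (2.82) and HNRNPK (2.07). In the signal recognition particle 2 of 8 were higher, SRP14 (2.72) and SRPRB (1.61), and 1 lower, SRP19, which was at 0 in all footprints. In the footprints TROVE2 was at 56.4, 29.8, 20.6 and 14.1 TPM and SRP14 at 98.6, 104, 144 and 98.4 TPM. Reads were not estimated for these mRNAs. Levels this low can rest on few reads, so whether the higher calls exceed counting error was not tested. Of the 7SK particle 1 of 7 was lower, the 7SK capping enzyme MEPCE, and of the polymerase III genes 4 of 28 (CRCP, SNAPC2, MAF1 and POU2F1), of which CRCP, SNAPC2 and POU2F1 were at 0 in all footprints. Both lower shares are below that of all genes, and with so few genes they say nothing particular to the lists. MEPCE was at 0 in all footprints but those of sgMETTL16-3, and MAF1 in all but those of sgMETTL16-2. Whether these lower calls exceed counting error was not tested. The vault particle and the modifying group had 0 calls. All 4 other polymerase III transcripts were lower in footprints (median log2 difference -6.52). For BCYRN1 a lower level was not detectable at this depth: it was at 0 in all footprints, and its input levels of 37.3 to 80.0 TPM are below what 1 read is worth in the same footprint library even for the 299-base 7SL RNAs (77.7 to 214 TPM). RNU6ATAC was at 0 in the sgMETTL16 footprints but at 622 TPM in those of sgNS, above its 417 TPM in the sgNS input. Its reads were not estimated. In the sgNS footprints 1 read was worth 717 TPM for the 113-base RNY1, so the 622 TPM can rest on 1 read. Whether these RNU6ATAC values differ beyond counting error was not tested. RPPH1 was lower in 4 of 4 cultures and RMRP too, with RMRP at 0 in sgMETTL16-3.

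The translation efficiency comparison tested whether the footprint to input ratio differed between sgMETTL16 and sgNS. None of these RNAs is translated, so for them the ratio only says how they divide between the libraries. Of 8 tested, 0 were called higher and 1 lower by limma's interaction term, where 0.587% of 8002 genes were called higher, 0.225% lower and 0.812% either way. All 65 calls were genes at 0 in the footprints of 1 side. The called RNA was VTRNA1-1 (log2 difference -12.26, SE 0.75, adjusted p = 0.0106), on the same 1 read in sgNS, and the call was lost with the replicate block (adjusted p = 0.144).

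The ratio of RNY4 fell short of a call at -1.08 (SE 1.43, limma adjusted p = 0.826), as did those of RNY5 at -1.39 (SE 1.21) and RN7SK at 1.14 (SE 1.24), each with the same adjusted p. For both Y RNAs the footprint to input difference was largest in sgNS, where inputs were low. RNY1 had 0.28 (SE 1.76, adjusted p = 0.927). RNY3 had 10.44 with sgNS footprints at 0 (adjusted p = 0.0822).

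Over the 8 libraries, other genes followed the log2(TPM + 1) of these RNAs closely. For VTRNA1-2 and VTRNA1-3 the nearest of 4472 genes was SNORA1, a small nucleolar RNA (Pearson r = 0.999 and 1.00), followed by RNVU1-7 (0.998) and SCARNA18 (0.998). For RNY5 they were the ribosomal RNA RNA28S5 (0.989) and SNORA3A (0.985), and for RNY4 the same pair, SNORA3A (0.981) and RNA28S5 (0.968). RNY1 was nearest to SNORA81 (0.974) and DUSP1 (0.963), and RNY3 to MKNK2 and TMEM120A (0.980 each). VTRNA1-1 was nearest to GTF2IP7 (0.994) and FHL3 (0.989). RN7SL1 was nearest to DNAJC5 (0.982) and SLC35E1 (0.979), RN7SL2 to PTPRF (0.995) and RMRP (0.994), and RN7SK to EMC6 and MZT2B (0.993 and 0.992). The points share libraries and depth, and zeros in the footprints set much of each pattern, so these values are descriptions.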

How the data were processed

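The authors deposited 1 table of TPM for 8 libraries; reads were aligned with STAR and quantified with RSEM 1.2.31 on GRCh38, per the submitters' processing notes. TPM keeps no depth, so limma 3.58.1 (R 4.3.3) was run on log2(TPM + 1) with an intensity trend and Benjamini-Hochberg adjustment over all genes at a mean of 1 TPM or more, with 0.05 as the threshold. Inputs were centred on the median gene. Footprints and the interaction were scaled by median ratios over genes above 0, since many footprint values are 0, and footprint versus input used TPM as deposited. The 10 RNAs and all gene lists were chosen with earlier results of these data known. Named were all 10 RNAs, METTL16, up to 4 genes per list by smallest input p, and the 2 nearest genes per RNA among those at a mean of 10 TPM or more; VIM, NEFL, NEFM, SRP19, SRPRB, MEPCE, SNAPC2 and MAF1 were named after their values were seen. Reads were estimated from the steps of TPM among small RNAs of 60 to 350 bases, the 10 RNAs left out. Titles place the input and footprint library of 1 guide in the same culture. Their deviations correlated at 0.05, -0.00 and 0.03 over 8002 genes, and those of unlike-numbered libraries at -0.06 to 0.04. The pairing thus rests on the titles. Nothing says that the sgMETTL16 cultures were handled independently, so p-values measure the spread between them, pooled in the input fit over genes of like level. Pseudocounts, filters, trend, scaling, the replicate block and leaving out each culture were tried as alternatives. Scripts were tested on simulated data.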

Additional observations from a re-analysis of the deposited data

Results flagged for a closer look

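VTRNA1-1 stood out for a difference between groups: its footprint to input ratio was lower in sgMETTL16 than in sgNS by a log2 difference of -12.26 (limma interaction, SE 0.75, adjusted p = 0.0106). The sgNS footprints held 1 estimated read of it (0.0253 to 5.57) and the sgMETTL16 footprints 0. Its inputs held 67 reads in sgNS and 506 to 727 in sgMETTL16. At its input TPM the footprint libraries would have given 0.0314 reads in sgNS and 0.756, 0.890 and 0.736 in sgMETTL16. The value thus rests on that 1 read and on footprints at 0 set against higher inputs in sgMETTL16. No difference was detectable at this depth. The call was lost in 5 of 12 alternatives, over which the adjusted p ranged from 0.00282 to 0.539.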

How the results depend on the processing

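The input changes of VTRNA1-1 (2.73 to 3.47), VTRNA1-2 (2.63 to 3.33), RNY4 (2.34 to 3.08) and RNY5 (2.84 to 3.65) were called in all 12 alternatives, and VTRNA1-3 (1.63 to 2.34) in 10, with an adjusted p of 0.0595 on TPM as deposited, 4 RNAs then being called higher. Genes called in the input comparison numbered 23 on TPM as deposited (22 higher and 1 lower) and 110 to 664 on leaving out a culture, where 4 to 5 of the RNAs were higher; the split of 173 higher and 137 lower became 253 and 66 with TPM rescaled without small structural RNAs and 248 and 139 with median ratio scaling. RNAs called lower numbered 2 with no filter on low values (RN7SL1 and RN7SK), 1 with a mean of 10 TPM or more and 1 with no intensity trend (RN7SK in both). In the footprint comparison 146 genes were called with a mean of 10 TPM or more and 0 with no trend, with centring on the median gene and without any 1 culture (0 to 0), and VTRNA1-1 was lost in these last 3, leaving 0 called. For translation efficiency the calls numbered 724 with a pseudocount of 0.1, 341 with 0.5, 472 with no filter, 105 with a mean of 10 TPM or more, 8 with no trend, 393 with rescaled TPM, 14 as deposited, and 0 with centring, with the replicate block and without any 1 culture (0 to 0); VTRNA1-1 was lost in these last 3, leaving 0 called lower. RNY3 was called higher, as 1 RNA, with a pseudocount of 0.1 (13.76, adjusted p = 0.0299) and with rescaled TPM (11.41, adjusted p = 0.0480). Footprint versus input called 8966 genes with no filter, 1190 with a mean of 10 TPM or more and 3002 with the replicate block, which changed no member's call there. RNAs called lower numbered 5 with no filter, 6 with median ratio scaling and 3 to 5 without 1 culture, while RNY4 (3.48 to 4.88) and RNY5 (5.40 to 6.81) were called higher and RN7SK lower (-9.82 to -8.48) in all 13 alternatives.

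Signs turned for values that were not called: input RNY3 without sgMETTL16-3 (-0.23, up to 1.16 without sgMETTL16-1); footprint RNY1, RNY4 and RNY5 with centring (-1.73, -1.23 and -0.96); footprint RN7SK without sgMETTL16-1 (0.48, down to -0.58 without sgMETTL16-3); the translation efficiency of RNY1 with rescaled TPM (-0.26), as deposited (-0.83) and without sgMETTL16-3 (-0.39, up to 0.93 without sgMETTL16-2), of RN7SL1 without sgMETTL16-2 (0.25) and of RN7SL2 without sgMETTL16-3 (0.13), against -6.07 and -6.52 without sgMETTL16-1; and the log2 input ratio of RNY1 to RNY3 without sgMETTL16-1 (-0.43, against 0.35 with all and up to 0.74 without sgMETTL16-2). Where calls moved with scaling, trend or pseudocount, the cause was not tested. Footprint depth limits every statement on 7SK and the vault RNAs there.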
